A study of Mus musculus with 6 samples.

Results

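The genes examined were the nuclear-encoded subunits of the oxidative phosphorylation complexes in single cells of the mouse genioglossus, the tongue muscle that holds the upper airway open. They were chosen by symbol alone, as every Ndufa, Ndufb, Ndufc, Ndufs, Ndufv, Sdh, Uqcr, Cox4 to Cox8 and Atp5 gene of the deposited gene list with at least 100 unique molecular identifiers (UMIs, counts of captured RNA molecules) over all matrices. Of 33696 genes, 84 symbols matched and 82 passed the minimum: 37 of complex I, 4 of complex II, 8 of complex III, 16 of complex IV and 17 of complex V. The complex was taken from the symbol alone, so every Nduf gene, Ndufa4 included, is counted in complex I. The 2 left out were Cox7b2 with 7 UMIs and Cox8c with 2, and the lowest kept were Cox8b with 1819 and Cox6b2 with 2009. Cells came from male mice at week 4 of an OSA model (obstructive sleep apnoea, repeated closure of the airway during sleep) and from control mice, with 3 libraries each, all labelled batch 1 and made on the 10x Genomics droplet platform. Control library 2 and OSA libraries 1, 2 and 3 were used, and the matrices of the other 2 control libraries were not analysed here, so every OSA comparison rests on 1 control library. The labels do not say how OSA was modelled, nor the strain, the age or whether a library is 1 animal, so p-values measure only the spread between these libraries.

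The labels call the cells skeletal muscle cells, but the 15 marker genes of muscle fibres (Acta1, Ckm, Mb and others) led only 1 small cluster of 181 cells, which was given no class. In the 10 tested classes these markers summed to 38.4 to 495 CPM (the UMIs of a gene scaled to a common total per library and class). Cell classes were named from marker genes of each type and are written as "like" that type. The 82 genes were kept out of the genes used to cluster the cells, so that their levels could be compared between classes.

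Oxidative phosphorylation takes place in the inner mitochondrial membrane. Complexes I and II pass electrons from NADH and succinate to ubiquinone, complex III passes them to cytochrome c, complex IV (cytochrome c oxidase) passes them to oxygen, and complex V (ATP synthase) makes ATP with the proton gradient that complexes I, III and IV build. Most subunits are encoded in the nucleus and join a small mitochondrially encoded core. Several subunits of complex IV come as isoform pairs, with a broadly used gene and a partner kept for striated muscle, hypoxia-responsive cells or the germ line.

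The 4 libraries held 70217449 to 82184913 UMIs and 12229 to 15218 kept cells. Any 2 libraries shared 41 to 67 cell barcodes. Mitochondrially encoded transcripts made up almost none of the RNA (median per cell 0.0155 to 0.0663%), and their summed level was highest in OSA 2 in 10 of 10 classes. The summed level of cytosolic ribosomal protein genes was highest in OSA 3 in 8 of 10 classes. Between 7.744 and 12.17% of kept cells stayed without a class.

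Mural-like cells, which wrap vessels as pericytes or smooth muscle, held the most RNA of these genes among the 10 tested classes. Summed over the 82 genes, the level was 27995 CPM in the control and 26169, 24472 and 29139 CPM in OSA 1, 2 and 3, a mean of 26944 CPM or 2.69% of all UMIs. The lowest of these 4 values was above every library of every other tested class. Satellite-like cells, the muscle stem cells, followed with 20594 CPM in the control and 21949, 21100 and 22501 CPM in OSA 1, 2 and 3, and lymphatic endothelial-like cells with 18829, 19011, 20943 and 22801 CPM in the same order. Macrophage-like, Schwann-like, T and NK-like and endothelial-like cells lay between 16369 and 21576 CPM and overlapped one another. Tenocyte-like cells ranged from 15414 to 17724 CPM and fibroblast-like cells from 15015 to 17179 CPM, and the libraries of both overlapped. Neutrophil-like cells were lowest, with 10413 CPM in the control and 8065, 12983 and 7975 CPM in OSA 1, 2 and 3.

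**Figure D1:**
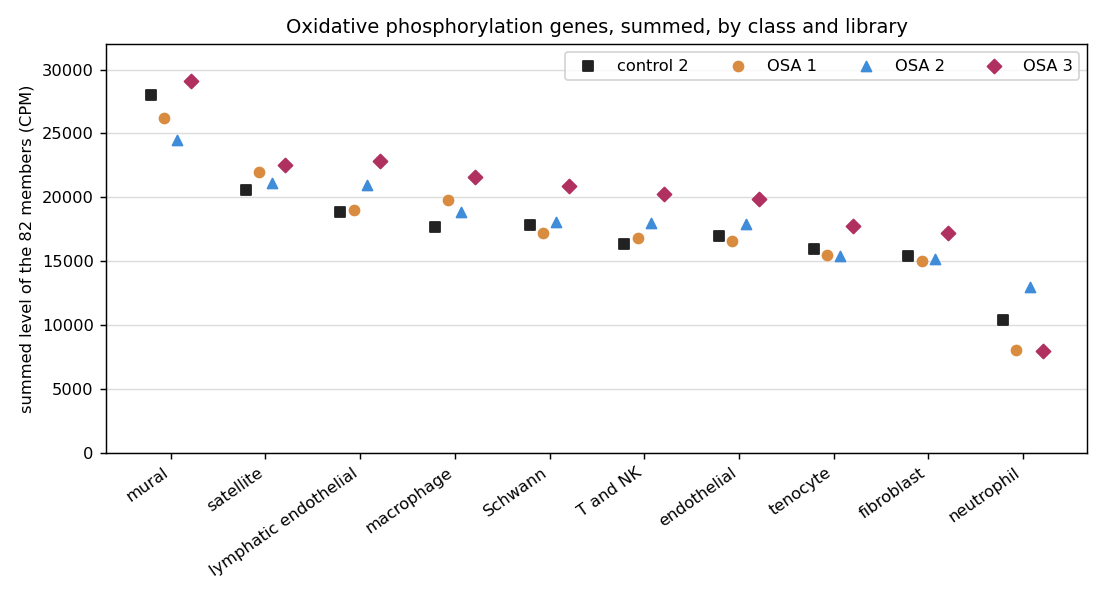
Summed level of the 82 genes (CPM, linear axis) in each tested class, 1 point per library for control 2 and OSA 1 to 3. The mural-like points (24472 to 29139 CPM) sit above all others, and the neutrophil-like points sit lowest.

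Most of the 82 genes varied little between classes. Leaving out neutrophil-like cells, whose control library held 42 cells, the ratio of the highest to the lowest class mean had a median of 1.989, and it was under 2 for 42 genes. It was above 3 for 5: Cox4i2 (40.1), Cox6b2 (9.46), Cox7a1 (5.45), Uqcrb (5.10) and Ndufc2 (4.46). Of the 82 genes, 53 had their highest class mean in mural-like cells, and 69 had their lowest in neutrophil-like cells. In 11 genes all 4 mural-like libraries lay above every library of every other tested class, among them Atp5g3, Cox4i2, Cox6a1, Cox7a2 and Cox8a.

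Each class was then compared with the mean of the other classes, in 1 edgeR quasi-likelihood fit over all classes with the library as a term and Benjamini-Hochberg adjustment over 14184 genes at 0.05. Differences are log2 values ± SE on the TMM-scaled level. In mural-like cells 70 of the 82 genes were higher, where 31.5% of all genes were, and 1 was lower, where 23.8% of all genes were. The median difference was 0.45 over the 82 genes and 0.02 over all genes. Higher genes came from every complex: 30 of 37 of complex I, 4 of 4 of complex II, 8 of 8 of complex III, 13 of 16 of complex IV and 15 of 17 of complex V. With class totals alone as the scale 77 were higher, where 6062 of 14184 genes were, and 0 were lower. The median was then 0.63 and that of all genes 0.20.

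The largest mural-like difference belonged to Cox4i2, described with its isoform partner further on. Sdhc, a membrane anchor of succinate dehydrogenase, had 173 CPM in the control and 159, 120.4 and 156 CPM in OSA 1, 2 and 3, and differed by 1.06 ± 0.08 from the other classes (adjusted p = 1.68e-15). Atp5g3, a gene for the membrane ring of ATP synthase, had 201, 198, 169 and 184 CPM in the same order and differed by 1.02 ± 0.08 (adjusted p = 4.55e-15). Its highest library elsewhere, in satellite-like cells, reached 140 CPM, so the classes did not overlap. Cox8a, the broadly used subunit 8 of complex IV, had 1600, 1539, 1225 and 1626 CPM against at most 1152 CPM in satellite-like cells (0.86 ± 0.08, adjusted p = 1.01e-12). Cox8b, its muscle counterpart, was the 1 gene lower in mural-like cells, at -0.70 ± 0.26 (adjusted p = 0.0212), with 2.57 to 8.03 CPM.

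**Figure D2:**
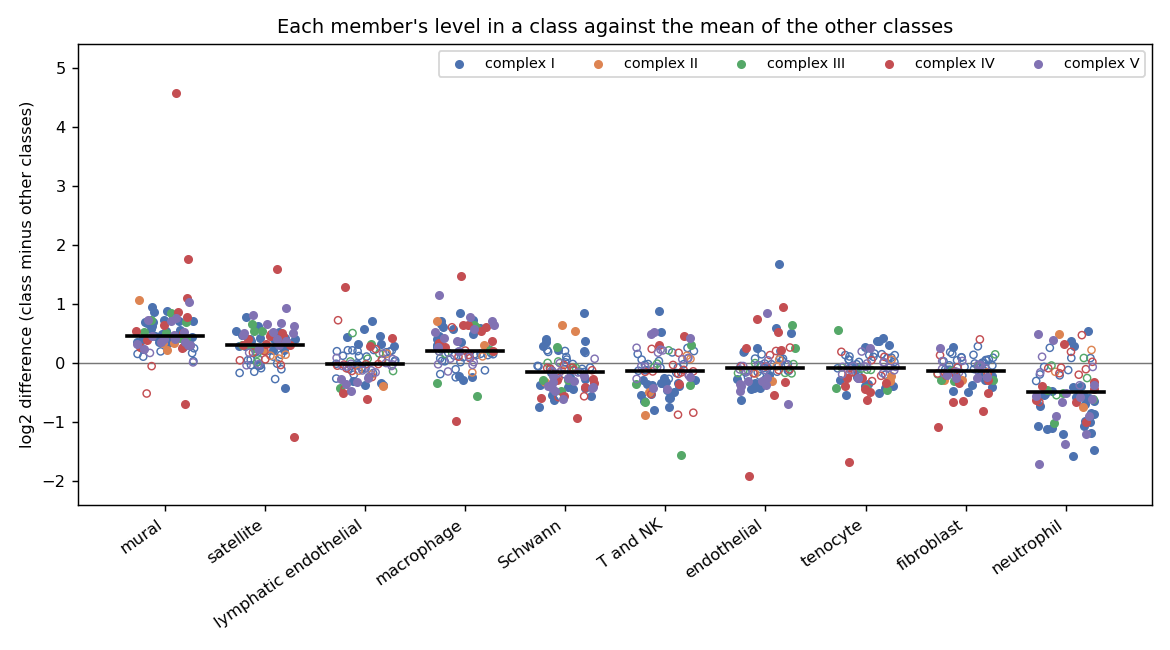
Difference of each gene in each class from the mean of the other classes (log2, edgeR), 1 point per gene, with the median of the 82 genes marked per class. The mural-like median (0.45) is the highest of the classes, and Cox4i2 stands alone at 4.57.

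The mural-like class joined 5 clusters, and the level was uneven among them. Cluster 17, led by Pln and the contractile genes Myh11, Acta2 and Tagln, had a summed level of 40461 CPM in the control and 38693, 37373 and 44053 CPM in OSA 1, 2 and 3. Cluster 15, led by the pericyte genes Kcnj8 and Abcc9, had 24283, 22623, 23701 and 26999 CPM, and cluster 1, led by Higd1b and Rgs5, had 21698, 20989, 21570 and 23439 CPM. Every library of cluster 17 thus exceeded every library of clusters 1 and 15, and of cluster 20 (20325 to 22718 CPM). Cluster 16, with 8 to 177 cells a library, had 21450 to 29423 CPM. Cluster 1 also carried endothelial markers at 14715 to 16707 CPM, against 2581 to 3202 CPM in cluster 15, and their part in the mural-like values was not tested. Without cluster 17 the mural-like count fell from 70 to 32 higher genes of the 82, and the median difference from 0.45 to 0.12. The share of all genes higher was 31.5% with all 5 clusters and is not given here without cluster 17. Without cluster 1 the mural-like count was 76 higher and 3 lower, with a median of 0.77. The share of all genes is not given for that setting either, so neither count is set against one.

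In satellite-like cells 48 of the 82 genes were higher, against 27.2% of all genes, and 2 were lower, against 28.1%. Of complex V 13 of 17 were higher, of complex III 6 of 8 and of complex I 19 of 37. Atp5g2, another gene for the membrane ring of ATP synthase, had 501 CPM in the control and 573, 564 and 562 CPM in OSA 1, 2 and 3 (0.93 ± 0.09, adjusted p = 4.61e-12). Atp5g1, the remaining gene for that ring, had 279, 329, 329.9 and 320.3 CPM (0.81 ± 0.08, adjusted p = 7.82e-12), and all 4 values lay above every library of every other tested class. The complex I gene Ndufa10 (0.78 ± 0.09) and Atp5a1, the alpha subunit of the catalytic head of ATP synthase (0.67 ± 0.08), were also among the largest. The lower genes were Cox4i2 (-1.26 ± 0.22) and Ndufa3 (-0.43 ± 0.11).

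In macrophage-like cells 40 genes were higher, against 32.3% of all genes, and 6 were lower, against 28.4%. With class totals alone as the scale these counts were 27 and 13, where 3668 of 14184 genes were higher. The median difference moved from 0.21 to 0.01 while that of all genes moved from -0.02 to -0.22. Atp5mpl, a small membrane subunit of ATP synthase, had 93.7 CPM in the control and 150.4, 145 and 122 CPM in OSA 1, 2 and 3 (1.14 ± 0.09, adjusted p = 2.45e-14). Ndufb1, an accessory subunit of complex I, had 221, 344, 429 and 362 CPM (0.84 ± 0.10, adjusted p = 4.99e-10). In both genes the control was the lowest of the 4 libraries. Cox7a1, the muscle isoform of subunit 7a, had 16.8 to 28.9 CPM (1.48 ± 0.17, adjusted p = 6.44e-10).

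Fibroblast-like cells had 2 genes higher and 27 lower, against 35.2% and 24.0% of all genes, and tenocyte-like cells 7 and 24, against 27.9% and 22.3%. Endothelial-like cells had 13 genes higher and 21 lower, against 35% and 26% of all genes, and T and NK-like cells 8 and 29, against 21.3% and 22.7%. Schwann-like cells had 10 genes higher and 32 lower, against 31.7% and 28.1% of all genes. With class totals alone 26 were higher and 9 lower, where 6368 of 14184 genes were higher (median of all genes 0.27). Lymphatic endothelial-like cells had 11 genes higher and 12 lower, against 21.1% and 19.6% of all genes. With class totals alone 43 were higher and 1 lower, where 4761 of 14184 genes were higher (median of all genes 0.20). The scale moved all genes alike: the median of the 82 genes minus that of all genes was -0.16 and -0.15 on the 2 scales in Schwann-like cells, and 0.02 on both in lymphatic endothelial-like cells. Neutrophil-like cells had 7 genes higher and 48 lower, against 23.8% and 33.1% of all genes. Their median of -0.49 was close to that of all genes in the class, -0.47. With class totals alone 0 of the 82 genes were higher, where 2353 of 14184 genes were (median of all genes -1.08).

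Single genes stood apart in these classes as well. Ndufv2, an iron-sulfur subunit of the NADH-oxidising arm of complex I, was highest in Schwann-like cells, with 209 CPM in the control and 213, 204 and 214 CPM in OSA 1, 2 and 3 (0.84 ± 0.10, adjusted p = 1.70e-09). Sdha, the catalytic subunit of succinate dehydrogenase, was also highest there, at 75.03 to 89.5 CPM (0.54 ± 0.08, adjusted p = 6.13e-07), and both genes lay above every library of every other tested class. Ndufs4, a complex I subunit needed for a stable NADH-oxidising arm, was highest in T and NK-like cells, at 170.2, 126, 183 and 185 CPM (0.88 ± 0.14). The lowest of these values belonged to OSA 1, and the next class, Schwann-like cells, reached 113 CPM. Ndufc2, a membrane-arm subunit of complex I, was highest in endothelial-like cells, at 384 CPM in the control and 567, 602 and 619 CPM in OSA 1, 2 and 3 (1.67 ± 0.08, adjusted p = 3.27e-22). Lymphatic endothelial-like cells followed at 291 to 357 CPM (0.70 ± 0.09, adjusted p = 2.05e-08), below every endothelial-like library. Endothelial-like cells also had Atp5j, a stalk subunit of ATP synthase, at 0.85 ± 0.08 and Cox6b2, the testis isoform of subunit 6b, at -1.92 ± 0.24 from the other classes.

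Promoter sequence was at hand for 68 of the 82 genes in RefSeq (table build GRCm38.p6, not the build of the deposited files). The 250 bases before each start were searched on both strands for 3 motifs of factors known to act on these genes: the palindrome of nuclear respiratory factor 1 (NRF1), the ETS core CCGGAAG bound by GABP, and a YY1 motif. No motif contains another, but the ends of the ETS and YY1 motifs can share 3 letters. The NRF1 letters were in 4 of the 68 promoters (5.88%) and in 0.877% of 27025 genes, the ETS letters in 12 (17.6%) and in 7.83%, and the YY1 letters in 1 (1.47%) and in 0.359%. The promoters of 4 genes that the class comparison turns on follow 5′ to 3′, with motif matches in capitals. Cox6a1, the broadly used subunit 6a that was highest in mural-like cells (666, 629, 602 and 711 CPM, chr5:115348959-115349208, minus strand), held the NRF1 palindrome as its first match and the ETS core, on the other strand, as its second. Ndufc2 (chr7:97399753-97400002, plus strand) and the isoform pair Cox7a1 (chr7:30183921-30184170, plus strand) and Cox7a2 (chr9:79759854-79760103, minus strand) held none, which says only that these letters are not in these windows.
Cox6a1: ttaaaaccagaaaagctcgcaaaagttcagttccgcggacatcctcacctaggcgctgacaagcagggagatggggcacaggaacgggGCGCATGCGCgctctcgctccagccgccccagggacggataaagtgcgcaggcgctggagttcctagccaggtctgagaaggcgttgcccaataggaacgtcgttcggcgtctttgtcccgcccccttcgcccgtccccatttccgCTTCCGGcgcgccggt
Ndufc2: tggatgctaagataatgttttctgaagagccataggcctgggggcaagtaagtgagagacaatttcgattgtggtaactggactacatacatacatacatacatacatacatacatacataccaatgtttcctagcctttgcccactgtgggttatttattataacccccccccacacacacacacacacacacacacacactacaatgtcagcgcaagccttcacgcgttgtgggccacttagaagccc
Cox7a1: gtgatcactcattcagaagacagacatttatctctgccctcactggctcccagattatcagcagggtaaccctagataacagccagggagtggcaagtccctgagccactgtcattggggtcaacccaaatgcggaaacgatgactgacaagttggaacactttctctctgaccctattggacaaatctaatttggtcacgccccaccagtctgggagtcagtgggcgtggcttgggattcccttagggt
Cox7a2: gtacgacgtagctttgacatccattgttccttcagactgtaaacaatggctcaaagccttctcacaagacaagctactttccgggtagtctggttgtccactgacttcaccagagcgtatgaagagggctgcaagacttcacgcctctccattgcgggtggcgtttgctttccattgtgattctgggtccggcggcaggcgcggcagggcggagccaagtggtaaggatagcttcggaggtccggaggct

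Of the 5 genes that varied over 3-fold between classes, 3 were isoforms of complex IV subunits. Cox4i2 (ENSMUSG00000009876), the hypoxia-linked isoform of subunit 4, had 450.2 CPM in the control and 415, 452 and 439.9 CPM in OSA 1, 2 and 3 in mural-like cells, and the other 9 classes ranged from 6.80 to 72.6 CPM. The difference was 4.57 ± 0.10 (adjusted p = 4.55e-32). As a share of the UMIs of Cox4i2 and Cox4i1, the broadly used isoform, it was 27.8% in the control (95% exact binomial interval 27.1 to 28.4%) and 27.9, 29.5 and 25.2% in the OSA libraries. Elsewhere the share was 0.561 to 7.90%. These shares are not corrected for transcript length and serve to compare classes, not both genes. The highest level elsewhere was that of T and NK-like cells of OSA 2, where mural markers summed to 778 CPM against 238 to 478 CPM in the other 3 libraries. The part of free RNA or attached mural cells in the low values elsewhere was not tested.

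Within the mural-like class Cox4i2 followed another order than the summed level. Cluster 15, led by Kcnj8 and Abcc9, had 1107 CPM in the control and 1060, 1152 and 1157 CPM in OSA 1, 2 and 3, and a share of 51.2, 53.2, 53.02 and 46.1%. Cluster 17, with the highest summed level of the 82 genes, had 426, 385, 421 and 471 CPM and a share of 19.9 to 21.1%. Cluster 1 had 387 to 446 CPM with a share of 27.6 to 31.5%, and cluster 20 had 108 to 143 CPM with a share of 10.8 to 13.9%. The 4 clusters did not overlap in this share. With OSA, Cox4i2 in the whole class differed by -0.01 ± 0.23 from the control, whose value lay inside the OSA range.

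**Figure D3:**
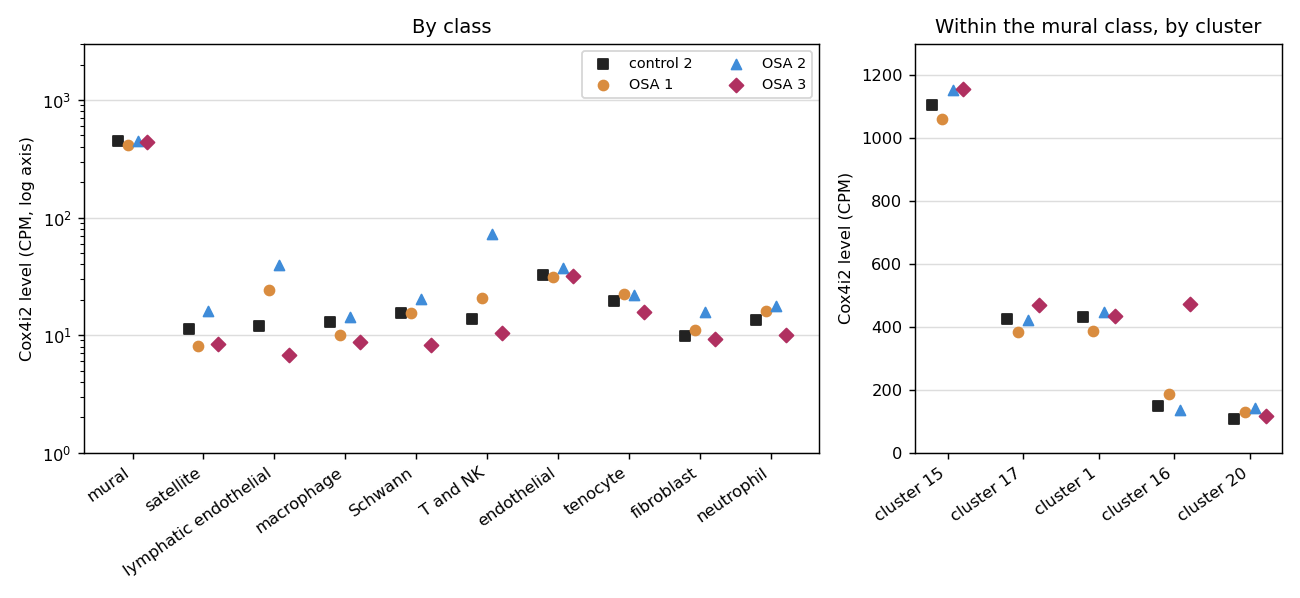
Level of Cox4i2 (CPM) in each tested class on a log axis and in the 5 mural-like clusters on a linear axis, 1 point per library. Mural-like cells sit at 415 to 452 CPM and all other tested classes below 72.7 CPM, and cluster 15 sits highest among the clusters.

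The other isoform pairs had smaller shares of the tissue-restricted gene. Cox7a1 made up 4.37 to 6.25% of the Cox7a1 and Cox7a2 UMIs in mural-like cells and 4.09 to 8.04% in macrophage-like cells. In mural-like cells it had 43.2 CPM in the control and 27.7, 28.6 and 37.5 CPM in OSA 1, 2 and 3 (1.76 ± 0.13, adjusted p = 3.98e-15), while Cox7a2 had 582 to 647 CPM (0.65 ± 0.09). Cox6b2 was higher in satellite-like (1.59 ± 0.25), lymphatic endothelial-like (1.29 ± 0.29) and mural-like cells (1.10 ± 0.18) and lower in endothelial-like and tenocyte-like cells (-1.68 ± 0.36). In satellite-like cells its values, 26.1, 9.51, 8.78 and 20.3 CPM, spread widely between libraries. Cox6a2, the muscle isoform of subunit 6a, made up at most 4.34% of its pair with Cox6a1, and Cox8b at most 3.08% of its pair with Cox8a, in any tested class and library. Cox7a2l, which helps to join complexes III and IV, was higher in T and NK-like (0.45 ± 0.08) and satellite-like cells (0.41 ± 0.08), at 357 to 468 CPM, and Cox6b1, the broadly used subunit 6b, in macrophage-like cells (0.65 ± 0.09).

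The muscle isoforms were abundant in 1 cluster outside the tested classes. In cluster 26, the 181 cells led by Acta1 and Mb, Cox6a2 had 1466 CPM in the control and 200.03, 250.1 and 127 CPM in OSA 1, 2 and 3, and Cox7a1 1055, 236, 299 and 209 CPM in the same order. Cox8b had 1377, 127, 280.4 and 136 CPM. The muscle fibre markers of that cluster were lower in the same libraries, at 90569 CPM against 12257, 8461 and 4930 CPM, while its endothelial markers stood at 17595 to 24022 CPM. With 24, 24, 96 and 37 cells, a lower level of the isoforms and a smaller share of fibre RNA in these cells cannot be told apart. Cluster i26, 15 cells led by Siglech and Ccr9, genes of plasmacytoid dendritic cells, was found in OSA libraries only and had Cox6a2 at 743, 2309 and 413 CPM. Cox7a1 and Cox8b had 0 UMIs in each of its 3 libraries.

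The OSA libraries were compared with the control library within each class by edgeR's quasi-likelihood test, with the lone control assumed to vary like the OSA libraries. None of the 82 genes passed the threshold in any of the 10 classes by this test or by DESeq2. Of 808 edgeR tests, 22 had an unadjusted p under 0.05. Per class these were 6 of 76 in neutrophil-like cells (363 of 6025 among all genes), 3 of 82 in endothelial-like (845 of 16478) and in satellite-like cells (683 of 11029), 2 in mural-like (748 of 16049), macrophage-like (1542 of 11535) and tenocyte-like cells (606 of 12551), and 1 each in fibroblast-like (681 of 16825), Schwann-like (449 of 12731), lymphatic endothelial-like (566 of 9804) and T and NK-like cells (736 of 7940). Among all genes 1.31% passed in T and NK-like cells, 0.832% in macrophage-like, 0.149% in Schwann-like, 0.133% in lymphatic endothelial-like, 0.0907% in satellite-like, 0.0561% in mural-like and 0.0239% in tenocyte-like cells, and 0.0% in endothelial-like, fibroblast-like and neutrophil-like cells. The median change of the 82 genes was above 0 in 9 classes, 0.08 to 0.22 outside neutrophil-like cells, while the medians of all genes in those 8 classes were 0.01 to 0.03. In endothelial-like cells 78 of 82 genes had a value above 0 (median 0.13), in lymphatic endothelial-like cells 73 of 82 (0.19), in Schwann-like cells 69 of 82 (0.11) and in macrophage-like cells 65 of 82 (0.22). In mural-like cells 27 of 82 did, with a median of -0.04. The median SE of a single gene was 0.20 to 0.32 outside neutrophil-like cells and 0.770 in them.

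OSA 3 had the highest summed level of the 82 genes in 9 of 10 classes and of the ribosomal protein genes in 8 of 10, and the part of this library's RNA makeup in the shift was not tested. Without OSA 3 the median change was 0.02 in endothelial-like cells, with 48 of 82 genes above 0, 0.03 in tenocyte-like (48 of 81), 0.02 in satellite-like (44 of 82) and 0.04 in T and NK-like cells (43 of 77). It was 0.10 in lymphatic endothelial-like (57 of 82) and in macrophage-like cells (51 of 82), -0.01 in Schwann-like (38 of 82), -0.04 in fibroblast-like (32 of 82) and -0.15 in mural-like cells (11 of 82). In each of these 9 classes the median was lower without this 1 library than with it, and in neutrophil-like cells it was 0.52. Without OSA 2 the mural-like median was 0.03. Summed levels of all 3 OSA libraries were above the control in T and NK-like, lymphatic endothelial-like, macrophage-like and satellite-like cells, and lay on both sides of it in the other 6 classes. In class sums, less of these transcripts per cell and fewer cells rich in them cannot be told apart. Cluster 17, the mural-like cluster with the highest summed level, made up 29.4% of the mural-like cells of the control and 24.2, 16.4 and 25.8% of those of OSA 1, 2 and 3, while its own summed level in the control, given above, lay inside the OSA range. The part of this smaller share in the mural-like values was not tested.

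The T and NK-like class was also made up differently in the libraries. Cluster i10, led by Scart1, Trdc and Cd3g, held 2.29% of its control cells and 19.8, 27.6 and 29.2% of its cells in OSA 1, 2 and 3, and cluster i5, led by Gzma, Ccl5 and Nkg7, held 29.0% against 10.4, 12.6 and 7.03%. Cluster i3 held 51.9% against 37.7, 20.7 and 44.3%, and cluster i6 16.8% against 32.1, 39.1 and 19.5%. In cluster i3 the summed level of the 82 genes was 14463 CPM in the control and 16581, 15782 and 20507 CPM in OSA 1, 2 and 3, all above it. In cluster i6 it was 18306 CPM against 14681, 16098 and 17830 CPM, all below it. In cluster i5 the control (18194 CPM) lay inside the OSA range (17724 to 22664 CPM), and cluster i10 had 3 control cells. The 4 clusters thus did not move 1 way, and the part of their shares in the T and NK-like values was not tested.

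**Figure D4:**
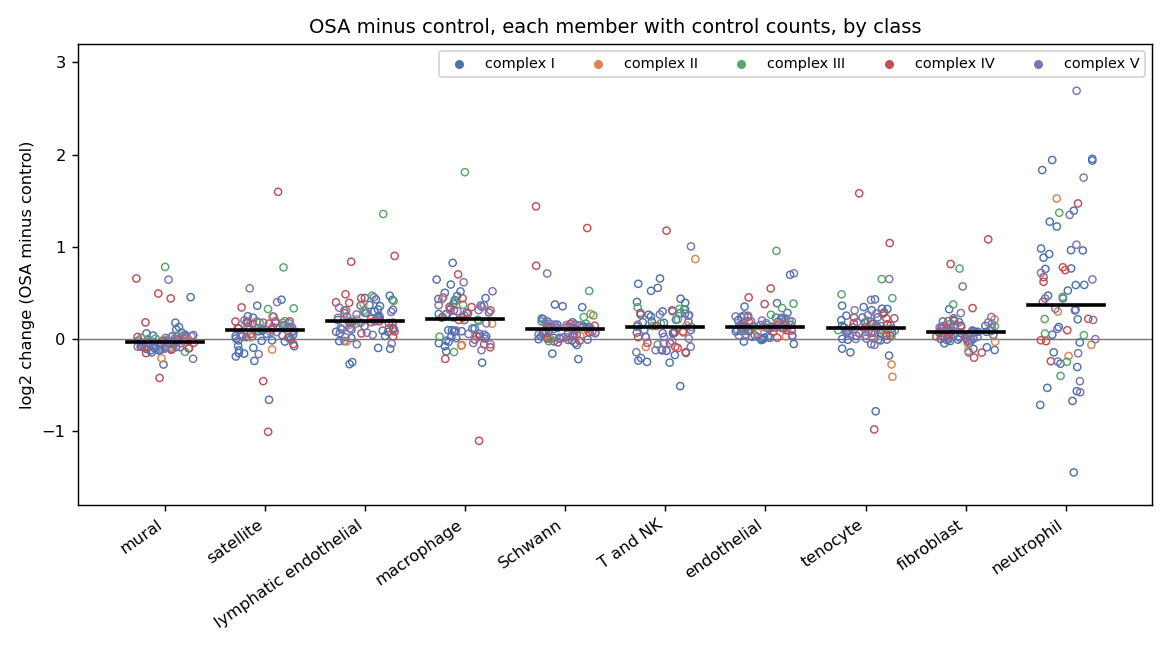
OSA minus control (log2, edgeR) for each gene in each tested class, 1 point per gene with control UMIs, with the median of the plotted genes marked per class. The medians sit above 0 in 9 classes and slightly below in mural-like cells, and no point passed the threshold.

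The libraries themselves were also set side by side, as the number of genes whose 3 OSA libraries all lay on 1 side of the control, with the share of all genes in brackets. T and NK-like cells had 44 above (32.7%) and 3 below (21.6%), and macrophage-like cells 40 above (30.5%) and 7 below (33.1%). Lymphatic endothelial-like cells had 36 above (24.5%) and 6 below (26.9%), and satellite-like cells 35 above (25.9%) and 7 below (25.2%). Endothelial-like cells had 31 above (21.5%) and 1 below (31.0%), Schwann-like cells 23 above (19.7%) and 3 below (23.3%), and tenocyte-like cells 20 above (20.1%) and 9 below (33.6%). Fibroblast-like cells had 12 above (21.6%) and 9 below (26.6%), and neutrophil-like cells 26 above (29.7%) and 19 below (37.2%). Mural-like cells had 5 above (21.6%) and 22 below (27.8%). More genes lay wholly above than wholly below the control in 9 of the 10 classes, and fewer in mural-like cells. Of these 9 classes, the fibroblast-like count above (12 of 82) was under the share of all genes. The tenocyte-like (20 of 81) and neutrophil-like counts above (26 of 76) were near that share. All classes share the same 4 libraries, so they are not separate evidence.

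The macrophage-like values came with a change in the clusters that hold them. Cluster i1, led by Retnla, Folr2 and Ccl24, held 73.7% of the control macrophage-like cells and 30.1, 31.4 and 14.7% of those in OSA 1, 2 and 3. Its summed level was 15946 CPM in the control and 15904, 16947 and 18465 CPM in OSA 1, 2 and 3, so the control lay inside the OSA range there. In that cluster alone 63 of 80 genes had a value above 0, the median was 0.12, and none passed the threshold.

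Atp5mpl (ENSMUSG00000021290) was above the control in all 3 OSA libraries in 10 of 10 classes. In single classes 19.7 to 32.7% of all genes lay wholly above this 1 control library. The share of all genes that did so in every class was not examined, and the classes share the same 4 libraries. In endothelial-like cells it had 33.6 CPM in the control and 64.9, 54.3 and 40.1 CPM in OSA 1, 2 and 3 (0.71 ± 0.22, adjusted p = 0.832). Mural-like cells had 69.5 CPM against 145, 97.4 and 76.5 CPM (0.64 ± 0.27, adjusted p = 1), and Schwann-like cells 49.9 CPM against 91.1, 78.2 and 69.4 CPM (0.71 ± 0.25, adjusted p = 0.581). In each of these 3 classes OSA 1 was highest and OSA 3 lowest of the OSA libraries. Fibroblast-like, satellite-like and tenocyte-like cells gave 0.57 ± 0.24, 0.55 ± 0.27 and 0.65 ± 0.29. Uqcrb (ENSMUSG00000021520), a subunit of complex III near its ubiquinone site, was above the control in all 3 OSA libraries in 7 classes, at low counts. In endothelial-like cells it had 9.93 CPM in the control and 21.96, 21.9 and 11.8 CPM in OSA 1, 2 and 3 (0.95 ± 0.31, adjusted p = 0.879). Genes of such small subunits often have near-identical copies elsewhere in the genome, and the part of such copies in these counts was not tested. Without OSA 3 the endothelial-like change was 0.84 for Atp5mpl and 1.16 for Uqcrb, and the mural-like change of Uqcrb was 0.90. In endothelial-like cells OSA 3 was the OSA library nearest the control for both genes, and leaving it out raised both changes.

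Other genes had like counts of classes with all 3 OSA libraries above the control. These were 9 for Atp5a1, 8 for Ndufa8 and Ndufb1, and 7 for Atp5g2, Cox5a and Ndufb5. The share of all genes with such counts was not examined. Ndufc2 (ENSMUSG00000030647) was above the control in all 3 OSA libraries in 8 classes. Endothelial-like cells, where its level was highest and the 4 values are given above, had 0.69 ± 0.21, adjusted p = 0.832. The control lay well below all OSA libraries, which were close together. Mural-like cells had 255 CPM against 319, 357 and 343 CPM (0.45 ± 0.22, adjusted p = 1). Within them cluster 1, which carries endothelial markers, had 319.9 CPM against 444, 471 and 492 CPM, and cluster 15 had 158 CPM against 197, 204 and 214 CPM. In clusters 17 and 20 the control lay inside the OSA range. It also did in fibroblast-like cells (134 CPM against 147, 124 and 138 CPM) and macrophage-like cells (138 CPM against 161, 126 and 136 CPM). Without OSA 3 the endothelial-like change of Ndufc2 was 0.62. Thrsp, the gene next to Ndufc2 and a regulator of lipid synthesis, had 567 CPM in the control and 726, 683 and 658 CPM in OSA 1, 2 and 3 in endothelial-like cells (0.34 ± 0.20, adjusted p = 0.953). Thrsp was also higher in endothelial-like cells than in the other classes (3.74 ± 0.11), and whether reads of Thrsp and Ndufc2 were mixed was not tested. Alg8, a neighbour of Ndufc2 with low counts, had 6.71 CPM in the control there and 5.65, 4.69 and 4.86 CPM in OSA 1, 2 and 3 (-0.35 ± 0.25). Its difference from the other classes was 0.40 ± 0.19 (adjusted p = 0.0606).

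**Figure D5:**
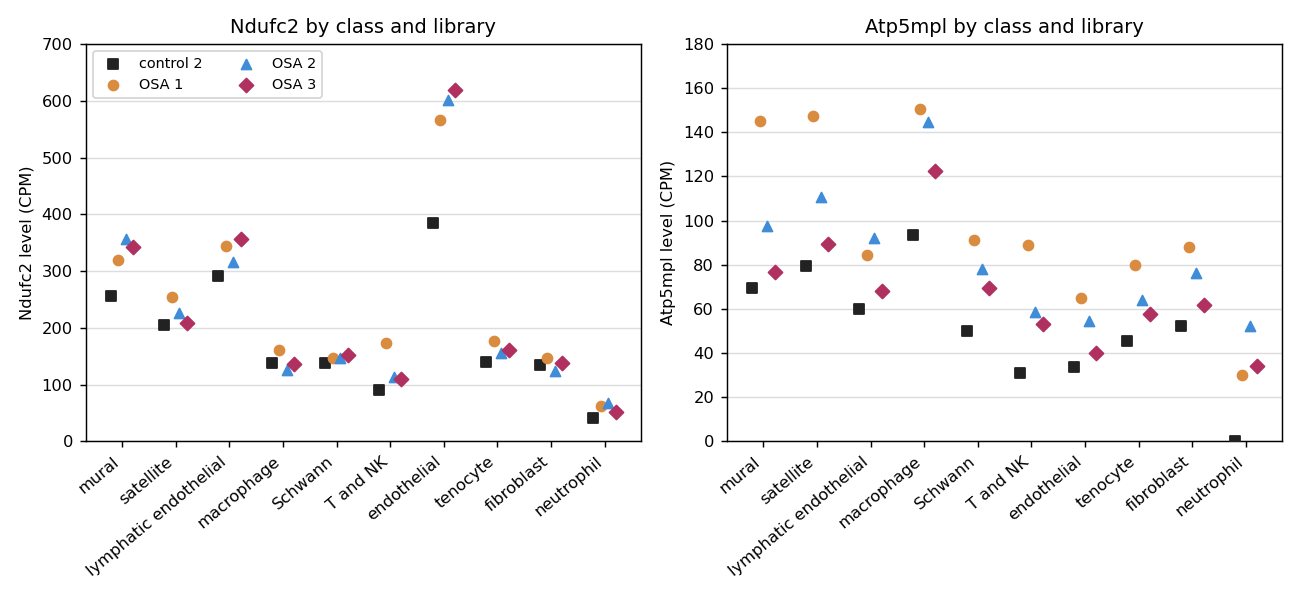
Level of Ndufc2 and Atp5mpl (CPM) by tested class, 1 point per library. For Atp5mpl the control is the lowest point in every class, and for Ndufc2 the gap in CPM between control and OSA libraries is widest in endothelial-like cells (384 against 567 to 619 CPM).

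Other genes with the largest differences in a class, in either direction, did not pass the test. Ndufb1 in macrophage-like cells, with the values above, had 0.82 ± 0.32, adjusted p = 0.278. Uqcrc1, a core subunit of complex III, had 87.1 CPM in the control and 109.9, 118 and 126 CPM in OSA 1, 2 and 3 in lymphatic endothelial-like cells (0.47 ± 0.30, adjusted p = 0.945). Cox4i2 in T and NK-like cells had 1.17 ± 1.34, with OSA 2 at 72.6 CPM and the other 3 libraries at 10.3 to 20.7 CPM. Ndufs1, the largest core subunit of complex I, had the lowest value in satellite-like cells, with 43.3 CPM in the control and 34.4, 30.2 and 16.9 CPM in OSA 1, 2 and 3 (-0.66 ± 0.33, adjusted p = 0.799), and in Schwann-like cells (-0.22 ± 0.28). All 3 OSA libraries of satellite-like cells were below the control. Ndufs3, another core subunit, had 101 CPM against 80.8, 68.5 and 76.8 CPM in T and NK-like cells (-0.51 ± 0.35, adjusted p = 0.767). Sdhc in tenocyte-like cells had 77.7 CPM against 62.8, 47.7 and 54.5 CPM (-0.41 ± 0.27), and Cox7a1 in mural-like cells -0.42 ± 0.23. In endothelial-like, fibroblast-like, lymphatic endothelial-like and macrophage-like cells the lowest values were small: Ndufb2 -0.06 ± 0.19, Ndufb4 -0.15 ± 0.23, Ndufs4 -0.27 ± 0.30 and Uqcrc2 -0.14 ± 0.32.

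Neutrophil-like cells gave the least precise values. Of the 82 genes, 9 had no UMI there in the control, whose floor of 3 counts equals 40.5 CPM. Ndufv2 was 1 of these and had 34.6, 71.9 and 34.3 CPM in OSA 1, 2 and 3. Ndufs7, a core subunit of complex I, had 135 CPM against 71.4, 77.4 and 46.3 CPM (-0.72 ± 0.57). Cluster i24, led by Ngp, Camp and Retnlg, held 362 neutrophil-like cells in OSA 2 against 0, 5 and 4 in control 2, OSA 1 and OSA 3.

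Whether the OSA change of a gene differed between classes was tested in 1 edgeR fit over all classes, as the change in 1 class minus the mean change in the others. Over all genes the median of this difference was 1.73 in neutrophil-like cells and between -0.44 and -0.28 in every other class. For every other class the mean of the others includes neutrophil-like cells, whose control held 42 cells. Their part in these differences was not tested. None of the 82 genes passed in any class, where 1.78% of all genes passed in macrophage-like, 0.437% in neutrophil-like, 0.402% in T and NK-like and 0.0353% in satellite-like cells and 0.0% in the other 6. At an unadjusted p under 0.05 29 of the 82 passed in neutrophil-like cells, where 1275 of 14184 genes did, 12 in mural-like (626 of 14184) and 8 in satellite-like cells (947 of 14184). The other 7 classes had 1 to 5, against 607 to 1830 of all genes, and no other tool was run. Without OSA 2, the difference in macrophage-like cells was 0.48 for Atp5e, 0.50 for Ndufa2 and 0.41 for Cox8a.

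Genes of neighbouring functions were counted in the same fits. The mitochondrially encoded subunits, all 11 tested, were higher in Schwann-like cells, where 31.7% of all genes were, and in macrophage-like cells (32.3% of all genes), and lower in fibroblast-like cells (24.0%). In macrophage-like cells they summed to 237 CPM in the control and 429, 727 and 633 CPM in OSA 1, 2 and 3. That control value was below those of Schwann-like (866 CPM), mural-like (478 CPM), lymphatic endothelial-like (297 CPM), endothelial-like (292 CPM) and satellite-like cells (289 CPM). It was above those of the remaining tested classes. Of the nuclear-encoded subunits 10 of 82 were higher in Schwann-like cells. Citric acid cycle genes were higher for 13 of 16 in mural-like cells (31.5% of all genes) and for 13 of 16 in satellite-like cells (27.2%). Glycolysis genes were higher for 15 of 18 in neutrophil-like cells (23.8% of all genes), where 48 nuclear-encoded subunits were lower. Mitochondrial ribosomal protein genes were higher for 47 of 78 in satellite-like cells (27.2% of all genes), and assembly factors of the complexes for 20 of 45 in macrophage-like cells (32.3%). In mural-like cells 27 of 78 of the former and 12 of 45 of the latter were higher, shares near that of all genes (31.5%).

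In the OSA comparison 4 genes of these lists passed the threshold. Coq10b, a ubiquinone-binding protein, fell in T and NK-like cells from 259.6 CPM to 164, 137 and 103 CPM in OSA 1, 2 and 3 (-1.05 ± 0.28, adjusted p = 0.0361). Hk2, a hexokinase that starts glycolysis, rose in lymphatic endothelial-like cells from 16.3 CPM to 49.9, 96.1 and 54.96 CPM in OSA 1, 2 and 3 (2.02 ± 0.43, adjusted p = 0.0119). The mitochondrial ribosomal gene Mrps6 fell in macrophage-like cells from 111 CPM to 38.3, 48.99 and 30.6 CPM in OSA 1, 2 and 3 (-1.47 ± 0.30, adjusted p = 0.0379), and the cytosolic ribosomal gene Rpl39 rose in Schwann-like cells from 126 CPM to 598, 584 and 242 CPM in OSA 1, 2 and 3 (1.93 ± 0.28, adjusted p = 1.49e-07). No mitochondrially encoded subunit, assembly factor, citric acid cycle gene, biogenesis regulator or hypoxia-linked respiration gene passed in any class by edgeR.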

How the data were processed

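The authors' deposited UMI counts per gene and cell barcode came from Cell Ranger 9.0.1, per the file headers of the matrices, with builds GRCm39 and mm39 per the submitters' processing notes; filters and annotation are not given in the sources used here. Counts were used as deposited. Barcodes with at least 300 genes, 500 UMIs and at most 20% mitochondrial UMIs were kept, and doublets called with Scrublet (scanpy 1.11.5, expected rate 0.1) were removed from the sums, 358 to 574 per library. Cells were clustered on 2000 variable genes without the 82 genes, 30 components, 15 neighbours and resolution 1, immune cells a second time. A cluster took a class name, meaning "like" that type, from at least 3 markers at 2-fold in 10% of its cells. It stayed unnamed where over 50% (immune 40%) were called doublets, or where another lineage's markers reached 75% of their usual level, a limit chosen after seeing the data. No correction for free RNA was made.

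Counts were summed per library and class, and classes with at least 30 cells in every library were tested. CPM are counts scaled by the class total of a library, without further scaling. Log2 differences and their SE come from edgeR 4.0.16 (limma 3.58.1, R 4.3.3) quasi-likelihood fits with TMM factors and filterByExpr, at an adjusted p of 0.05 (Benjamini-Hochberg over all genes). The OSA fit has 2 residual degrees of freedom, and the control is assumed to vary like the OSA libraries. DESeq2 1.42.0, other filters and scalings, and leaving out each library were alternatives. Added after seeing the data were 4 more: mural-like cells without cluster 1 or without cluster 17, macrophage-like cluster i1 alone, and totals without ribosomal genes. The fits were checked on simulated data. Class totals were 74138 to 29303943 UMIs, and intervals and floors (3 counts) cover counting error only.

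The 82 genes, the other lists and the tests were chosen with earlier results of these data known. Genes named are the complex IV isoforms, in each class the genes of mean log2 CPM of at least 5 with the largest change in either direction, and up to 5 higher and 3 lower per class in the class comparison, with values for those the text turns on. Uqcrb, Ndufc2 with OSA, Thrsp, Alg8 and the clusters were singled out after their values were seen.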

Additional observations from a re-analysis of the deposited data

Results flagged for a closer look

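Among values with a mean of at least 50 CPM over the 4 libraries and at least 20 control UMIs, 4 genes had all OSA libraries above the control by a set ratio in 1 class and all below it by a set ratio in neutrophil-like cells. The neutrophil-like control held 42 cells. Other genes, such as Ndufs7, also lay wholly below the control there and wholly above it in other classes, at smaller ratios or lower counts. As the OSA mean over the control CPM, Atp5e had 1.37 in macrophage-like and 0.528 in neutrophil-like cells, and Ndufa2 had 1.35 and 0.638 in the same 2 classes. Ndufb9 had 1.33 in macrophage-like and 0.711 in neutrophil-like cells, and Atp5md had 1.31 in T and NK-like and 0.710 in neutrophil-like cells. The difference between the 2 classes of each pair was not tested. The test of each class against the mean of the others called none of the 82 genes by edgeR.

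Cox6a2 appeared in 2 small clusters outside the comparisons, together with other muscle isoforms in 1 of them. Cox6a2 had a mean of 1155 CPM over the OSA libraries in cluster i26, which held no control cell and had 0 UMIs of Cox7a1 and Cox8b. In cluster 26 the OSA means were 192 CPM for Cox6a2 and 181 CPM for Cox8b. In the 10 tested classes these muscle isoforms made up at most 4.34% and 3.08% of the UMIs of their pairs.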

How the results depend on the processing

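No paired analysis was possible because control 2 and OSA 2 are the only libraries with matrices that share a replicate number. In the OSA comparison the number of the 82 genes called stayed at 0 under every alternative, except in endothelial-like cells (2 without the low-count filter, 0 to 3 leaving out 1 library) and mural-like cells (0 to 1). The median change ranged with 1 library left out from -0.0066 to 0.17 in Schwann-like, -0.038 to 0.14 in fibroblast-like and -0.15 to 0.026 in mural-like cells, the low values of the first 2 without OSA 3 and the high mural-like value without OSA 2. For Ndufb2 in endothelial-like cells the change ranged from -0.17 to 0.047, above 0 without OSA 1. Uqcrc2 in macrophage-like cells was 0.38 in cluster i1 alone. The summed satellite-like level was 2915 CPM above the control with ribosomal genes out of the totals, against 1256 CPM. The class differences of the OSA change gave 0 to 3 genes in macrophage-like and 0 to 1 in neutrophil-like cells with 1 library left out. With the 82 genes among the clustering genes, Cox6b2 was 0.889% of its pair in tenocyte-like cells.

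Counts in the class comparison moved more. With class totals alone, without TMM, genes higher were 43 in lymphatic endothelial-like cells (4761 of 14184 among all genes) and 26 in Schwann-like cells (6368). They were 16 in T and NK-like cells (3368) and 0 in neutrophil-like cells (2353). Genes lower were 41 in fibroblast-like, 13 in macrophage-like, 9 in Schwann-like, 1 in lymphatic endothelial-like and 0 in mural-like cells. The median was then 0.22 in lymphatic endothelial-like and 0.11 in Schwann-like cells, and in neutrophil-like cells Atp5l (-0.13), Atp5pb (-0.10), Cox8a (-0.18), Ndufa3 (-0.18), Ndufb1 (-0.039) and Sdhd (-0.12) turned below 0. Leaving out mural-like cluster 17 gave 32 higher in mural-like, 4 higher in fibroblast-like and a median of 0.013 in lymphatic endothelial-like cells, and leaving out cluster 1 gave 3 lower in mural-like and 1 higher in fibroblast-like cells. Leaving out 1 library, genes higher ranged from 7 to 15 in endothelial-like, 0 to 4 in fibroblast-like, 0 to 11 in neutrophil-like, 6 to 12 in Schwann-like, 5 to 14 in T and NK-like and 4 to 9 in tenocyte-like cells. Genes lower ranged from 16 to 29 in fibroblast-like, 7 to 9 in lymphatic endothelial-like, 1 to 5 in macrophage-like, 0 to 2 in mural-like, 27 to 64 in neutrophil-like, 19 to 25 in T and NK-like and 15 to 23 in tenocyte-like cells, and the lymphatic endothelial-like median ranged from -0.041 to 0.037. In neutrophil-like cells Atp5pb ranged from -0.27 to 0.78, Ndufa3 from -0.088 to 0.70 and Sdhd from -0.34 to 0.83. The cause of these moves was not tested. Apart from the numbers in brackets, the shares of all genes under these settings are not given here, so the counts are not set against them.

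Over all genes, the number called in the OSA comparison moved with the setting. It was 0 in endothelial-like cells as reported and 0 to 311 over the alternatives (39 by DESeq2), 0 and 0 to 240 in fibroblast-like (38), 0 and 0 to 88 in neutrophil-like (0), 3 and 0 to 63 in tenocyte-like (4), 9 and 4 to 142 in mural-like (25), 10 and 3 to 94 in satellite-like (11), 13 and 2 to 140 in lymphatic endothelial-like (4), 19 and 3 to 29 in Schwann-like (3), 96 and 0 to 834 in macrophage-like (156) and 104 and 34 to 306 in T and NK-like cells (34). Of the comparisons with a named gene, 979 kept direction and side of the threshold, 71 fell below it, 2 passed it and 11 changed direction. Depth limits neutrophil-like cells most, with 74138 UMIs in the control.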
